A study of Mus musculus with 3 samples.

Results

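Genes for integrins, laminins and other parts of the basement membrane were examined in the choroid plexus epithelium (CPE) of the mouse. The set held every probe of the array whose gene name starts with Itga or Itgb, names a laminin chain, a nidogen or a syndecan, or is Hspg2, Agrn or Dag1. It came to 49 of the 27845 gene names on the array, and to 103 of its 41174 probes. Of the 49 genes, 6 carry the integrin prefix but code for no integrin subunit, and these were counted apart. The names Hspg2 and Agrn matched no probe. Perlecan, the product of Hspg2, agrin and the laminin chain Lamb1 were found under other names in the deposited tables, and their values are given as genes outside the set.

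The samples were CPE of 3 female C57BL/6 mice aged 18 to 21 weeks, described as healthy, and each mouse had an array of its own. The epithelium of the lateral ventricles was cut by laser from frozen sections so as to leave out the vascular stroma, and its RNA was amplified before labelling. CPE RNA carried the red dye Cy5. The common reference on every array was Cy3-labelled (green) RNA of the eye, taken from the retinal pigment epithelium with its choroid (RPE/choroid) of wild type mice. Dyes were not swapped, so any preference of a probe for Cy5 or Cy3 is part of its ratio, and the spread of the reference tissue was not measured. Nothing in these values separates fewer cells of a type from less RNA per cell.

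Integrins are receptors of an alpha and a beta chain that span the cell membrane and tie the cytoskeleton to the matrix outside the cell. Laminins are trimers of an alpha, a beta and a gamma chain that assemble into the sheet of the basement membrane, where nidogens, perlecan and collagen IV join them. Syndecans and dystroglycan are further receptors for this matrix. In the choroid plexus, the basement membrane lies between the epithelium and the vascular stroma, and vessels, stromal cells and smooth muscle make integrins and laminins too.

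The labelled tissue was checked against marker genes. Of 9 CPE markers on the array, 8 were higher in CPE than in the reference, and all 8 RPE and melanocyte markers were lower. Markers of other cells also gave signal in the CPE channel. All 6 stromal markers and all 6 endothelial markers were well above background in CPE on all 3 arrays. Dcn stood at percentile 98.3 and Kdr at percentile 97.1 of the array. The same held for 7 of the 8 RPE and melanocyte markers, so signal above background does not by itself show which cells were present. Of all probes, 58.5%, 46.0% and 85.6% were well above background in CPE of mice 1, 2 and 3. The mean level of the stromal markers was 11.26 to 11.57 in CPE and 13.05 to 13.18 in the reference on the log2 scale, and that of the endothelial markers 9.76 to 10.13 and 9.63 to 9.80. The array of mouse 3 stood apart in its background. The fitted background of its CPE channel had a median of 363 intensity units, against 81.2 and 82.6 for mice 1 and 2, and the CPE channel was well above background for 94 member probes there, against 76 and 57.

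The CPE level of each probe was ranked over all probes, as a mean of the 3 mice. A rank above the 90th percentile was called high, 50 to 90 moderate, 10 to 50 low and under 10 very low. Of the 103 member probes, 15 probes of 14 genes were high, where 10% of all probes are high by definition. A further 49 were moderate, 28 low and 11 very low. The ranks place a probe on the array and do not order the genes by amount of transcript, since probes differ in how they hybridise.

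The high genes came from 8 of the 11 groups of members. They were the integrin chains Itga3, Itga8, Itgav, Itgb1, Itgb5 and Itgb8, the laminin chains Lama5 and Lamc1, both nidogens, the syndecans Sdc2 and Sdc4, dystroglycan (Dag1), and Itgb1bp1, which codes for a protein that binds the tail of the beta 1 chain. The highest ranks were those of Itgb5 at percentile 97.7, Sdc2 at 97.0 and Sdc4 at 96.2. At the boundary, Itgav at 90.1 lay just inside and the second probe of Dag1 at 88.1 just outside. Without mouse 3, the Itgav probe ranked at 88.8. Only Itga8 had 2 high probes, of 3, and each other gene was high by 1 probe. Itgb5, Lama5, Lamc1 and the nidogens had no further probe. The lowest probe ranked at percentile 1.1 for Itgav, of 6 probes, and at 8.3 for Itgb8, of 4. It ranked at 27.6 for Itgb1 and at 65.3 for Itga3, of 3 probes each. No collagen-binding alpha chain, no leukocyte integrin and neither Itga4 nor Itga9 had a high probe.

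**Figure D1:**
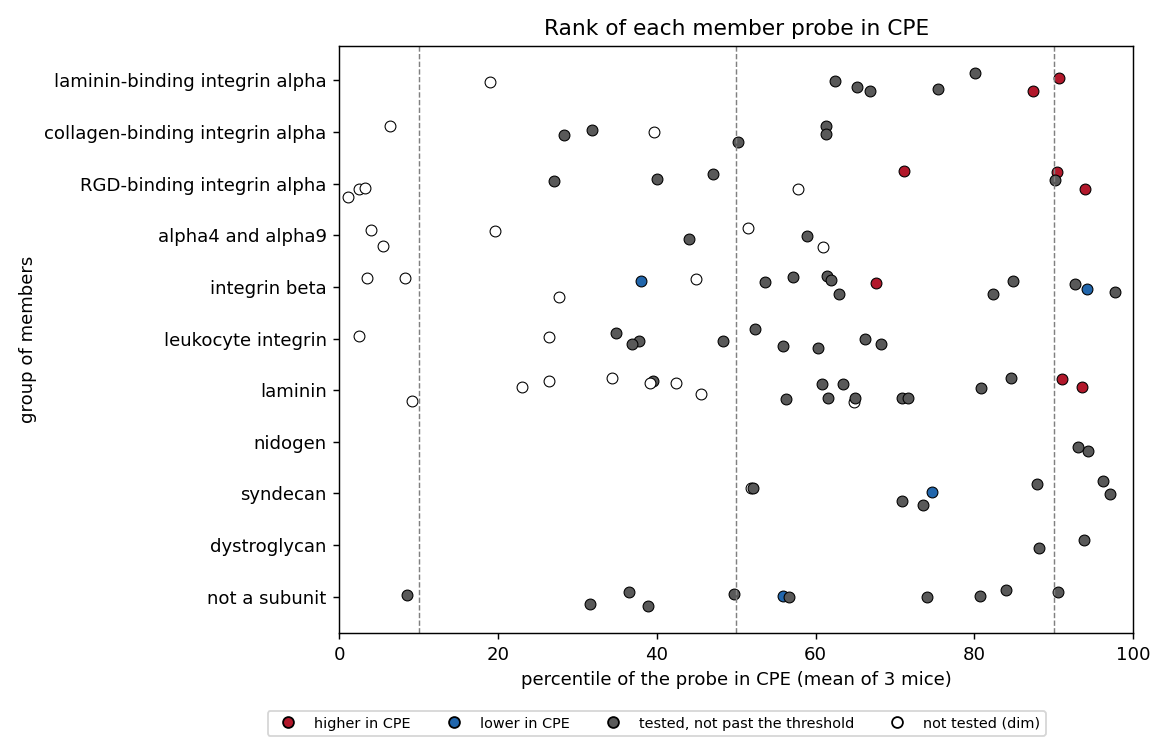
Percentile of each member probe in CPE (x axis, mean of 3 mice) by group of members (y axis), with dashed lines at the 10th, 50th and 90th percentiles and colours for the result against the reference. Of 103 probes 15 lie right of the 90th percentile, and the leukocyte integrins all lie left of it; the vertical offset within a group has no meaning.

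The second comparison set CPE against the RPE/choroid reference. Log2 ratios were tested with limma over 25847 probes whose CPE channel or reference channel was well above background in all 3 mice, and a probe passed at an adjusted p below 0.05 and a change of at least 2-fold. Of the members, 76 probes of 46 genes were tested. In CPE, 8 probes of 6 genes were higher and 4 probes of 3 genes were lower. Over all tested probes, 17.3% passed, 7.09% as higher and 10.2% as lower, so the 12 members of 76 were a share close to that of the array. The median log2 ratio of the tested members was 0.16, and that of all tested probes was -0.04.

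All 12 probes that passed had the same sign in the 3 mice. Mouse 3 gave the smallest ratio for 8 of the 8 higher probes, and it did so for 74.7% of the 1833 higher probes of the whole array. Without mouse 3, 9 higher and 5 lower probes passed. The part of its background in this was not tested. Of the 64 tested member probes that did not pass, 51 had a 95% confidence interval that stayed within 1 log2 unit of 0, and 17 had an adjusted p below 0.05 with a change under 2-fold.

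The way the dyes were balanced within an array moved the ratios of bright members. With each array centred on its median in place of the loess curve, the ratios of the 14 genes with a high brightest probe rose by 0.40 to 0.77, while the median of all tested probes rose by 0.13. Ratios below are from the loess curve, and the value under centring is given where the result changed.

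The alpha chain Itga8 pairs with Itgb1 and binds the RGD motif of matrix proteins such as nephronectin. Its brightest probe, at chr2:12024688-12024747 on the minus strand of build mm8, had log2 levels of 11.29, 11.56 and 10.52 in CPE of mice 1, 2 and 3. The reference channel of the same arrays stood at 8.15, 8.28 and 7.69. Every CPE level was above every reference level. This gave a log2 ratio of 3.08 (SE 0.16, adjusted p = 1.82e-05, n = 3), or 8.47-fold, the largest among the higher members, and the rank in CPE was percentile 94.0. A second probe, 0.172 kb from it toward the 5′ end, gave 2.26 (SE 0.23, adjusted p = 0.000284).

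The alpha chain Itga3 pairs with Itgb1 as a receptor for laminins, among them those with the Lama5 chain. Its brightest probe, at chr11:94861090-94861149 on the minus strand of mm8, had levels of 10.74, 10.28 and 10.70 in CPE and of 7.50, 7.61 and 8.89 in the reference. The groups did not overlap, and the reference on the array of mouse 3 was the brightest of the 3. The log2 ratio was 2.57 (SE 0.26, adjusted p = 0.000301), or 5.93-fold. A second probe gave 2.09 (SE 0.24, adjusted p = 0.000506). Among the other laminin-binding alpha chains, Itga6, which pairs with Itgb1 or Itgb4, had ratios of -0.06, 0.13 and -0.34 by mouse and a mean of -0.09 (SE 0.16). Itga7, best known from muscle, had ratios of 0.77, 0.95 and -0.16 and a mean of 0.52 (SE 0.23). Neither passed.

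Itga5 pairs with Itgb1 as the receptor for fibronectin. Its only probe, at chr15:103172625-103172684 on the minus strand, had levels of 9.21, 8.26 and 8.29 in CPE and of 6.32, 6.26 and 7.97 in the reference. The CPE levels were all higher, but the margin was narrow in mouse 3. The ratios were 2.89, 2.00 and 0.32, with a mean of 1.74 (SE 0.42, adjusted p = 0.0137). The reference was well above background on 1 of the 3 arrays, so the size of this ratio rests on a dim channel. The scanner's log ratio gave 3.78 on the log2 scale, and tested against a 2-fold change Itga5 did not pass (adjusted p = 0.590). Itgav, which pairs with several beta chains, was bright in both channels. Its levels of 10.41, 9.95 and 10.71 in CPE lay below those of 11.14, 11.10 and 11.30 in the reference. Its log2 ratio was -0.82 (SE 0.17, adjusted p = 0.00775), short of 2-fold, and it was -0.19 under median centring.

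The collagen-binding chains Itga1, Itga2, Itga10 and Itga11 had 7 probes. Of these, 5 were tested and none passed in limma, with log2 ratios from -0.74 for Itga11 to 0.72 for Itga1. At an unadjusted p below 0.05 there were 4. The share of all tested probes below that limit was not counted. It is above the 17.3% that passed, so the 4 are not read as a result about these chains. The brightest probes of Itga1 (adjusted p = 0.0128), Itga10 (0.0206) and Itga11 (0.0168) missed only the 2-fold limit. With the scanner's log ratio these 3 and a second Itga1 probe passed, Itga11 as lower and the others as higher. The reference of that second Itga1 probe was well above background on 0 of the 3 arrays. The CPE channel was well above background on 1 of 3 arrays for Itga11 and on 2 of 3 for Itga10. The size of the ratios of these 3 probes thus rests on a dim channel. Itga2 was too dim to be tested, as was Itga2b, the alpha chain of platelets. Of 3 tested platelet markers, 2 (Pf4 and Ppbp) were lower in CPE. Only 1 of the 4 platelet markers on the array was well above background in CPE on all 3 arrays. Their mean level in CPE was 6.70 to 7.62, so these ratios can rest on a dim channel. Itga4 and Itga9, receptors for Vcam1 and tenascin among others, had 2 tested probes with ratios of 0.02 and -0.19. The brightest Itga4 probe, with ranks that differed strongly between mice (SD 30.4), was not tested.

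Itgb1, the shared partner of Itga3, Itga5 and Itga8, was in the high class in CPE and did not pass against the reference. Its levels were 10.78, 10.88 and 10.80 in CPE and 10.65, 10.75 and 10.42 in the reference. This gave a log2 ratio of 0.21 (SE 0.15, 95% interval -0.15 to 0.57), and under median centring 0.87 (adjusted p = 0.0571). Itgb5, a partner of Itgav in binding vitronectin, had levels of 12.40, 12.31 and 12.35 in CPE, all above the 11.60, 11.75 and 11.87 of the reference. Its log2 ratio of 0.61 (SE 0.16, adjusted p = 0.0175) was short of 2-fold. Under median centring it was 1.38 and passed (adjusted p = 0.0140).

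Itgb8 pairs with Itgav, and the pair is known for activating latent TGF-beta. Its brightest probe, at chr12:119602597-119602656 on the minus strand, stood at 11.31, 11.34 and 10.67 in CPE and at 12.86, 12.60 and 12.59 in the reference. This probe was thus high in CPE by rank, at percentile 94.2, and lower than in the reference in every mouse. Its log2 ratio was -1.58 (SE 0.18, adjusted p = 0.000489), or 2.99-fold lower. The other Itgb8 probes ranked at percentiles 57.2, 38.0 and 8.3. Of these, the probe at 38.0 gave -1.77 (SE 0.17, adjusted p = 0.000266). The probe at 57.2 gave -0.43 (SE 0.15, adjusted p = 0.0596) and did not pass. Under median centring the brightest probe gave -0.81 and did not pass (adjusted p = 0.143), while the probe at 38.0 still passed as lower.

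Itgb6, the other Itgav partner known for activating TGF-beta, passed with 1 of its 2 tested probes alone. Over both channels together that probe was the dimmer, but in CPE it ranked higher, at percentile 67.6 against 61.5. That probe had CPE levels of 8.64, 9.06 and 7.00 against 7.35, 7.18 and 6.95 in the reference, so the channels overlapped. Its ratio was 1.29 and 1.89 in mice 1 and 2 and 0.04 in mouse 3, with a mean of 1.08 (SE 0.32, adjusted p = 0.0303). It no longer passed without mouse 1 or without mouse 2. The other probe, brighter over both channels together, gave 0.39 (SE 0.18, adjusted p = 0.128). Itgb3 and Itgb4, the partner of Itga6 in hemidesmosomes, did not pass, with 0.29 (SE 0.17) and 0.20 (SE 0.16) for their brightest probes.

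The integrins of leukocytes (Itgae, Itgal, Itgam, Itgax, Itgb2, Itgb2l and Itgb7) had 9 tested probes. None passed in limma, 6 had an unadjusted p below 0.05, and their median log2 ratio was -0.43. The share of all tested probes below that unadjusted limit was not counted, so the 6 are not read as a result about this group. Itgax had ratios of -1.39, -0.89 and -0.57 and a mean of -0.95 (SE 0.19, adjusted p = 0.00695), just short of 2-fold. It passed as lower with array weights, with the scanner's fitted background, with the scanner's log ratio and without mouse 3. Itgb2, the shared beta chain of Itgal, Itgam and Itgax, had -1.07, -0.71 and -0.46 and a mean of -0.75 (SE 0.17, adjusted p = 0.0121). Itgam had a mean of -0.59 (SE 0.16), and a probe of it passed with the scanner's log ratio. These 3 were below 0 in every mouse. The others of the group did not all lie below 0. Itgb2l had 0.50, Itgb7 0.15 and Itgae 0.04, and the 2 Itgal probes gave -0.43 and 0.12. Markers of macrophages and leukocytes had a median log2 ratio of -0.78. Of 7 such markers 3 were lower in CPE (Cd68, Csf1r and Lyz2), none was higher, and all 7 were above background in CPE on all arrays. Their mean level was 8.62 to 9.33 in CPE and 9.74 to 10.33 in the reference. The part of these cells in the integrin ratios was not tested.

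**Figure D2:**
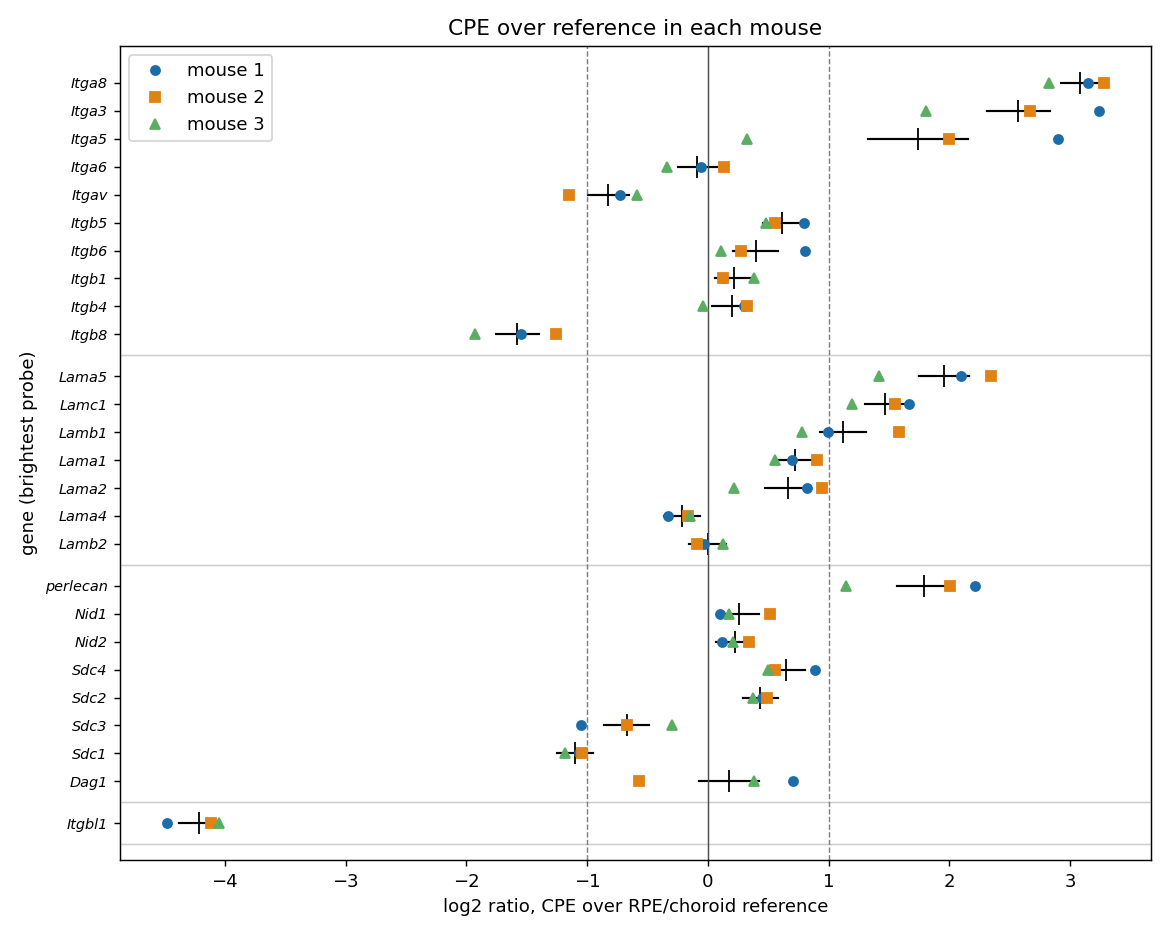
Log2 ratio of CPE over the RPE/choroid reference (x axis) in mouse 1, 2 and 3 for the brightest probe of selected genes (y axis), with a black line for the mean and its SE from limma and dashed lines at 2-fold. Itga8 lies near 3 in all mice, Itga5 spreads from 2.89 to 0.32, and Itgbl1 lies below -4 in all mice; Lamb1 and perlecan lie outside the set by name.

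Among the laminin chains, 2 of 12 tested probes were higher in CPE and none was lower. The probe for Lama5, an alpha chain common in epithelial basement membranes, had levels of 11.06, 11.54 and 10.48 in CPE and of 8.96, 9.20 and 9.06 in the reference. This only probe of Lama5 has a listed match at chr2:180105781-180105795 on the minus strand. That match spans 15 bases, against 60 for the brightest Itga8 probe, so the assignment of the probe to Lama5 rests on a short match. Every CPE level was above every reference level by over 1 log2 unit. Its log2 ratio was 1.95 (SE 0.20, adjusted p = 0.000351), or 3.87-fold. Lamc1, the gamma chain of most laminins, had its probe at chr1:154981243-154981301 on the minus strand, with levels of 10.78, 10.79 and 10.08 in CPE and of 9.11, 9.24 and 8.89 in the reference. These did not overlap either, and the log2 ratio was 1.47 (SE 0.16, adjusted p = 0.000481), or 2.77-fold.

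The beta chain that joins Lama5 and Lamc1 in a common trimer is Lamb1, which the tables list under an older name, so it lies outside the set. It had levels of 11.26, 11.90 and 10.48 in CPE and of 10.27, 10.32 and 9.70 in the reference. Its log2 ratio was 1.12 (SE 0.19, adjusted p = 0.00341). Without mouse 2 it was 0.89, short of 2-fold, and tested against a 2-fold change it did not pass. Lamb2, the alternative beta chain, had ratios of -0.04, -0.09 and 0.12 and did not pass (SE of the mean 0.15, adjusted p = 0.992).

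The other alpha chains did not pass. Lama1 had 0.72 (SE 0.16, adjusted p = 0.00941) and Lama2, the chain of muscle and vessel basement membranes, 0.66 (SE 0.19, adjusted p = 0.0267), both above 0 in every mouse. Under median centring a Lama2 probe passed, and with the scanner's log ratio a Lama1 probe did. Lama4, common in endothelial basement membranes, had -0.22 (SE 0.15) and Lama3 had 0.19 (SE 0.16). Lamb3, a beta chain known from epithelia, had -0.12 (SE 0.17). None of the 3 probes for Lamc3 was tested. Endothelial markers gave 0 of 6 past the threshold in limma and a median ratio of 0.09. At an unadjusted p below 0.05 there were 4 of 6, a limit whose share over all tested probes was not counted. Stromal markers gave 5 of 6 lower. The part of endothelial and stromal cells in the laminin ratios was not tested.

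The promoters of genes on which these results turn were read for Itga8, Lama5, Lamb1 and Itgb8, to set genes higher in CPE beside a gene that was lower. Each run is the 250 bases before the start of the gene, 5′ to 3′, from RefSeq on build GRCm38.p6, with each GC box (GGGCGG, or CCGCCC for the other strand) in capitals.
Itga8, chr2:12301945-12302194, minus strand: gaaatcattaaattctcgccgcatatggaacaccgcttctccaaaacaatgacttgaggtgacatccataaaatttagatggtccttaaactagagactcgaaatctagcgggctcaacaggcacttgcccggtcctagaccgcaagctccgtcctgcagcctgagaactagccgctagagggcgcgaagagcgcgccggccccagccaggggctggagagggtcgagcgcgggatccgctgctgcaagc
Lama5, chr2:180225860-180226109, minus strand: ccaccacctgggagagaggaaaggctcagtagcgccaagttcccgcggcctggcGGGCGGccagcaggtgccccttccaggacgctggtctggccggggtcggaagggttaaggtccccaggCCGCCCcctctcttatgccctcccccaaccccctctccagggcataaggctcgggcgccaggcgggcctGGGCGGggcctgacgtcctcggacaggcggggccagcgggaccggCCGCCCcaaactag
Lamb1, chr12:31265043-31265292, plus strand: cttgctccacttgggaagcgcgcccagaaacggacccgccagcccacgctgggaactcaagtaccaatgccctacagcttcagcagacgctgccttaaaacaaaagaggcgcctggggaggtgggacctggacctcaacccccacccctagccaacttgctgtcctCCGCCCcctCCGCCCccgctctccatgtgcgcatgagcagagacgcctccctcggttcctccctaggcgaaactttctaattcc
Itgb8, chr12:119238277-119238526, minus strand: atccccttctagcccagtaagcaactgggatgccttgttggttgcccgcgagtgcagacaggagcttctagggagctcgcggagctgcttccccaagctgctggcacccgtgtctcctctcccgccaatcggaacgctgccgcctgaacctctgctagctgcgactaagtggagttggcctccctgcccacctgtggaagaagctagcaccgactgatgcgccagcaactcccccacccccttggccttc
The Lama5 window held 4 GC boxes and the Lamb1 window 2. Those of Itga8 and Itgb8 held none. A GC box lay in 32.7% of 32851 promoters of this length, and in 16 of 36 promoters (44.4%) of the 32 members with an entry. The median GC content was 58.6% in the member promoters and 52.4% in all promoters. TATAAA on either strand was in none of the 4 windows, in 12.4% of all promoters and in 2.8% of the member promoters. CCAAT on either strand was in 33.8% of all promoters and in 22.2% of the member promoters. These are matches of letters and were not tested for binding.

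The nidogens, which link laminin to collagen IV, were high in CPE by rank, at percentiles 93.1 and 94.3, and did not pass against the reference. Nid1 had levels of 10.58, 11.12 and 10.99 in CPE and 10.48, 10.61 and 10.82 in the reference. Its log2 ratio was 0.26 (SE 0.16, adjusted p = 0.242) and that of Nid2 0.22 (SE 0.15, adjusted p = 0.288). Perlecan, a heparan sulfate proteoglycan of the basement membrane that lies outside the set by name, was higher in CPE. Its levels were 11.19, 10.89 and 10.47 in CPE and 8.98, 8.88 and 9.32 in the reference, with no overlap, and the log2 ratio was 1.79 (SE 0.22, adjusted p = 0.000798). Tested against a 2-fold change it did not pass (adjusted p = 0.0728). Agrin, a related proteoglycan, also outside the set by name, had -0.84 (SE 0.16, adjusted p = 0.00477), below 0 in every mouse and short of 2-fold.

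Of the syndecans, which are transmembrane heparan sulfate proteoglycans, 1 of 7 tested probes was lower and none was higher. Sdc1, known from epithelia and plasma cells, had its probe at chr12:8818585-8818644 on the plus strand, with levels of 8.72, 8.64 and 8.59 in CPE and of 9.79, 9.68 and 9.77 in the reference. The channels were more than 1 log2 unit apart in each mouse, and the log2 ratio was -1.10 (SE 0.15, adjusted p = 0.00116). Under median centring it was -0.64 and did not pass (adjusted p = 0.147). Sdc4, a partner of integrins at focal adhesions, had levels of 11.84, 11.67 and 11.70 in CPE and of 10.96, 11.12 and 11.21 in the reference. Its log2 ratio was 0.65 (SE 0.16, adjusted p = 0.0159), and 1.36 under median centring, where it passed. Sdc2 had 0.44 (SE 0.15, adjusted p = 0.0515), and 1.19 under median centring, where it passed too. Sdc3, the syndecan best known from neural tissue, had ratios of -1.05, -0.67 and -0.30 for its brightest probe and a mean of -0.67 (SE 0.19, adjusted p = 0.0236), while its other tested probe gave 0.23 (SE 0.19).

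Dystroglycan, the laminin receptor of the dystrophin complex, had CPE levels that differed between mice. The brightest Dag1 probe had levels of 11.64, 10.22 and 11.28 in CPE against 10.94, 10.79 and 10.89 in the reference. Mouse 2 was the only one below the reference. This gave a log2 ratio of 0.17 (SE 0.25, adjusted p = 0.616), and it was -0.09 without mouse 1. The second probe gave 0.71 (SE 0.23, adjusted p = 0.0440), with mouse 2 again the lowest. Under median centring 1 of the 2 probes passed, and the brightest, at 0.83, did not. Without mouse 2, 1 of the probes passed too, and the brightest, at 0.54, did not.

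The genes with the integrin prefix that code for no subunit had 11 tested probes, of which 1 passed. Itgbl1 codes for a protein with repeats like those of a beta chain, without a membrane anchor, and its probe lies at chr14:123109045-123109104 on the plus strand. Its levels of 7.09, 7.45 and 7.24 in CPE lay far below those of 11.57, 11.56 and 11.29 in the reference. The log2 ratio was -4.21 (SE 0.16, adjusted p = 6.89e-06), or 18.5-fold lower, the largest difference of any member in either direction. Itgb1bp1 had 0.30 (SE 0.15, adjusted p = 0.156).

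**Figure D3:**
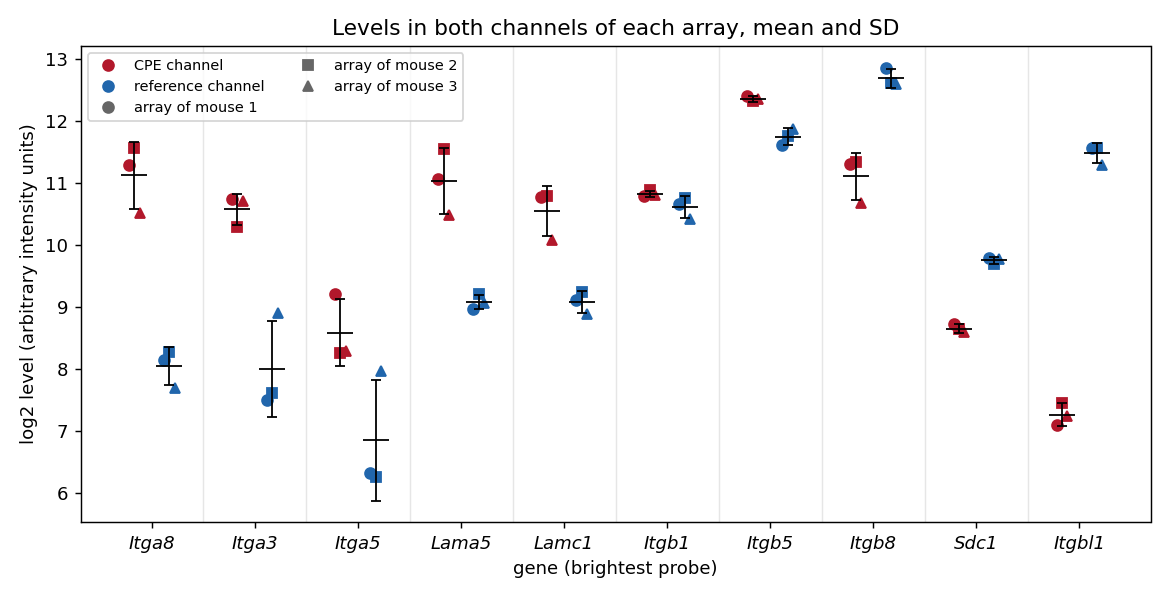
Log2 level (y axis, arbitrary intensity units) of the brightest probe of 10 genes (x axis) in the CPE channel and the reference channel of each array, with the mean and SD of the 3 arrays in black. The channels are apart for Itga8, Lama5, Lamc1, Itgb8, Sdc1 and Itgbl1, close for Itgb1, and the reference of Itga3 and Itga5 is brightest on the array of mouse 3; levels of different genes are not comparable.

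Probes of the same gene did not always give the same ratio. For 4 genes the tested probes fell on both sides of the threshold. The third Itga8 probe, whose match spans chr2:12073365-12078215 and so crosses an intron, lies 48677 bases from the first, toward the 5′ end, and gave 0.09 (SE 0.15, adjusted p = 0.674). Its CPE channel was well above background on 2 of 3 arrays. The third Itga3 probe, 9498 bases from the one nearest the 3′ end, gave 0.90 (SE 0.20, adjusted p = 0.00916). It passed with array weights, with the scanner's log ratio and without mouse 3. In both genes the probe nearer the 5′ end had the smaller ratio and the lower CPE rank, percentiles 47.1 and 65.3. In Itgb8 the middle probe stood out, at -0.43 (SE 0.15), between probes of -1.58 and -1.77.

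No member probe lay on a strand other than that of its gene, among the 66 for which both strands were known. The source of the differences between probes was not tested.

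**Figure D4:**
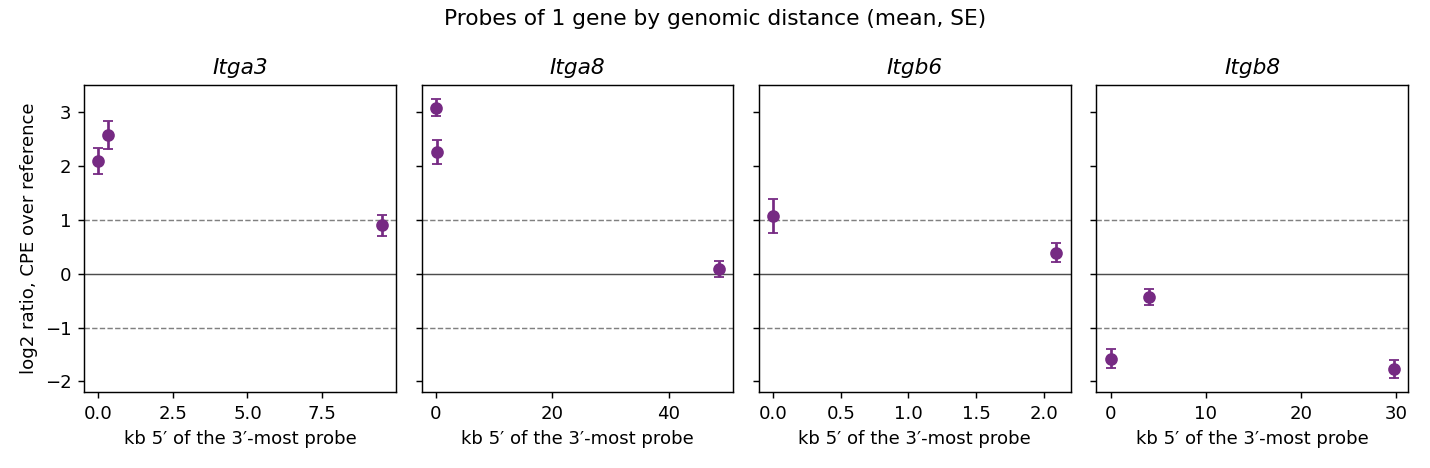
Log2 ratio of CPE over reference (y axis, mean and SE of 3 arrays) for the tested probes of the 4 genes whose probes disagreed, against the genomic distance in kb from the probe nearest the 3′ end (x axis, a separate scale for each gene), with dashed lines at 2-fold. The far probes of Itga8 and Itga3 have ratios of 0.09 and 0.90, below those near the 3′ end.

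Partners of the members were counted in lists, by the brightest probe of each gene. Among basement membrane partners, 3 of 14 tested genes were higher in CPE and 4 were lower, with a median log2 ratio of -0.19. Bcam, a receptor for the Lama5 chain, was higher with levels of 10.82, 10.29 and 11.27 in CPE and 8.20, 8.26 and 9.10 in the reference, and a ratio of 2.27 (SE 0.17). Fras1 (1.45, SE 0.19) and Frem2 (1.06, SE 0.20), which form a complex under epithelia, were higher too. The collagen IV chains were split. Col4a6 (-2.22, SE 0.17) and Col4a4 (-1.13, SE 0.19) were lower, and the most widespread chains Col4a1 (0.56, SE 0.18) and Col4a2 (0.74, SE 0.23) were short of 2-fold. Smoc1 and Smoc2, matrix proteins that bind calcium, were also lower. Npnt, the ligand of Itga8, was too dim to be tested.

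Of 9 tested genes for further ligands of integrins, 1 was higher and 5 were lower, with a median log2 ratio of -1.42. Vcam1, an adhesion molecule for leukocytes, had levels of 13.61, 13.39 and 13.39 in CPE and 10.26, 10.26 and 10.33 in the reference, and a ratio of 3.18 (SE 0.15). Fibronectin (Fn1), the ligand of Itga5, was lower at -1.42 (SE 0.21), and vitronectin (Vtn), the ligand of Itgav with Itgb5, was lower at -1.51 (SE 0.15). Spp1, Thbs1 and Edil3 were lower as well, at -3.56, -2.60 and -2.56. Stromal and smooth muscle markers, 5 of 6 and 2 of 4 of them lower, moved in the same direction, and their part was not tested.

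Inside the cell, 2 of 16 tested adhesion adaptors were higher and 1 was lower, with a median of 0.13. Actn1, an actin crosslinker at focal adhesions, had ratios of 3.90, 2.32 and 2.52 and a mean of 2.91 (SE 0.30). Talin (Tln1), which binds and activates beta chains, had 1.31, 0.88 and 0.92 and a mean of 1.04 (SE 0.16). Vinculin (Vcl), which binds talin, had -0.80, -1.39 and -1.36 and a mean of -1.18 (SE 0.18). Ilk, Ptk2 and Fermt2 did not pass, with 0.35, -0.03 and 0.07.

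Around dystroglycan, 4 of 14 tested genes of the dystrophin complex and of dystroglycan glycosylation were higher and 1 was lower, with a median of 0.32. Pomgnt1, an enzyme that builds the sugar chain by which dystroglycan binds laminin, had levels of 12.05, 12.12 and 12.53 in CPE and of 9.32, 9.64 and 10.15 in the reference, and a ratio of 2.53 (SE 0.16). The sarcoglycan Sgcb had 2.09 (SE 0.16). Dystrophin (Dmd) was lower at -1.52 (SE 0.16), while its relative utrophin (Utrn) had -0.30 (SE 0.16). Counts in all these lists stand beside the 7.09% higher and 10.2% lower of the array and were not tested as lists. The lists count the brightest probe of each gene and the array shares count every tested probe, so the measures are not fully alike.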

How the data were processed

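Gene expression was measured on 3 Agilent 2-colour arrays, 1 per mouse. The authors scanned them and used Agilent Feature Extraction 9.5.3.1. The deposited scanner tables give intensity per spot and per local background in both channels, plus processed intensities. Their deposited ratio column is on the log10 scale, CPE over reference. The authors also deposited a table of log2 values of the CPE channel, normalized between arrays with Aquantile. No replicates were pooled.

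Here, in R 4.3.3 with limma 3.58.1, mean intensities were background corrected (normexp, offset 50), normalized by loess within arrays and fitted as a mean ratio against 0, with p-values adjusted by Benjamini-Hochberg over all 25847 tested probes. Control spots were left out and spots of a probe averaged. Levels are those after loess and Aquantile. Percentiles used log2 mean red intensity after Aquantile with no background correction, following the study's methods. The brightest probe over both channels stood for a gene. Genes were named where that probe passed the threshold or was high, where probes fell on both sides of the threshold, or where a gene completes a dimer or trimer. Members and lists were chosen with earlier results of these data known. A few genes counted in the groups are not reported here by name. Scripts were tested on simulated data. Coordinates of probes are those of the tables, on mm8, for 102 of 103 probes; no annotation of that build was used, so exons are not given. Promoters and gene strands came from RefSeq tables of GRCm38.p6. P-values measure the spread between 3 mice, and this number limits the precision. Alternatives were no background correction, median centring, the scanner's log ratio, other filters, array weights, a test against a 2-fold change, other rankings and leaving out each mouse.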

Additional observations from a re-analysis of the deposited data

How the results depend on the processing

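Counts of members depended on how the dyes were balanced, on the scanner's own processing and on the form of the test. Past the threshold as higher were 8 probes, 13 with median centring, 12 with the scanner's log ratio and 5 when tested against a 2-fold change (treat). Past it as lower were 4 probes, 2 with median centring, 8 with the scanner's log ratio and 2 with treat. Median centring added a probe each of Dag1, Itgb5, Lama2, Sdc2 and Sdc4 and lost the brightest probe of Itgb8 and that of Sdc1. The scanner's log ratio added 2 probes of Itga1 and a probe each of Itga3, Itga10, Itga11, Itgam, Itgax, Itgb4bp and Lama1. Over all tested probes median centring turned 7.09% higher and 10.2% lower into 14.5% and 7.13%, and the scanner's log ratio gave 11% and 15.1%. The 7 probes that passed under treat were among the 12, and a probe each of Itga5, Itgb6, Itgb8, Lamc1 and Sdc1 was lost. Outside the set, perlecan (adjusted p = 0.0728) and Lamb1 did not pass under treat. Ranked among probes well above background in CPE only, 3 members were high in place of 15. Ranks fall there by construction, since dim probes left the ranking, but 10% of the ranked probes are still high by definition. Of the member probes, 57 were well above background in CPE on all 3 arrays. Leaving out each mouse in turn gave 7 to 9 higher, 4 to 5 lower and 13 to 15 high probes. The ratio of Dag1, 0.17 over all mice, ranged from -0.093 without mouse 1 to 0.54 without mouse 2, and the cause was not tested. The Itgb6 probe did not pass without mouse 1 or 2, without background correction, with the scanner's log ratio, with no filter, with treat, or with the scanner's fitted background, an alternative chosen after seeing the data. Itga5 was not tested when both channels had to be above background. Each ratio pairs CPE with the reference on the same array. The 3 arrays form 1 group, so no other pairing was possible. Each array lay on a slide of its own, so slide and mouse cannot be told apart. Without a dye swap, dye and tissue cannot be told apart either.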
